A study of Mus musculus with 16 samples.

Results

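Schwann cells are the glia of peripheral nerves, and 8 of their genes were followed through 4 mouse tendons. The genes were Mbp, Pmp22, Prx, Drp2, Sox10, S100b, Cdh19 and Ugt8a. They and the gene lists used below were chosen with earlier results of these data known. Counts of those that passed a threshold therefore describe a chosen set. The genes were found by symbol among the 41204 genes of the deposited count table, in which each of the 8 symbols has 1 row. All 8 were among the 23754 genes that passed the filter on low counts and were tested. The study sequenced RNA from the Achilles tendon of the heel, the flexor tendon of the forepaw (Flexor), the patellar tendon of the knee (Patellar) and the supraspinatus tendon of the shoulder (Supraspinatus) of mice of the inbred laboratory strain C57BL/6J. Each tendon had 4 libraries, 16 in all, numbered as mice 1 to 4 in the labels. By their labels the groups differ only in the tendon named. The Patellar libraries also differed from the rest in total counts and in rRNA-like counts, as given below. The sources used here give no age, sex or treatment, and do not say how each tendon was freed of the muscle, fat and nerve around it. The design asked how mRNA differs between every pair of tendons.

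In a peripheral nerve, myelinating Schwann cells wrap 1 stretch of 1 axon in compacted layers of their own membrane, and non-myelinating Schwann cells hold bundles of thin axons. SOX10 is the transcription factor that sets Schwann cell identity at every stage and acts with EGR2 to switch on the myelin genes. The proteins of compact myelin include MBP and PMP22, its lipids include galactolipids made by UGT8A, and periaxin (PRX) links DRP2 and the dystroglycan complex to the outer membrane. Tendons carry nerve mainly in the sheath and at the junction with muscle. The libraries are of bulk tissue, so fewer Schwann cells and less RNA of a gene per Schwann cell cannot be told apart.

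Promoter windows from RefSeq (GRCm38.p6, 250 bases before to 50 bases after an annotated start) matched 4 of the 8 genes, namely Prx, Ugt8a, Pmp22 and S100b, with 7 windows between them. Windows of Mbp, Drp2, Sox10 and Cdh19 were not used here. Of these, 4 windows are printed because Ugt8a was the gene with the largest and Pmp22 the one with the smallest difference between Achilles and Supraspinatus, because Pmp22 has 4 annotated starts, and because Prx held the only motif match. Each is written 5′ to 3′ on the gene's strand, and capitals mark the motif match.
Prx, chr7:27499074-27499373, plus strand: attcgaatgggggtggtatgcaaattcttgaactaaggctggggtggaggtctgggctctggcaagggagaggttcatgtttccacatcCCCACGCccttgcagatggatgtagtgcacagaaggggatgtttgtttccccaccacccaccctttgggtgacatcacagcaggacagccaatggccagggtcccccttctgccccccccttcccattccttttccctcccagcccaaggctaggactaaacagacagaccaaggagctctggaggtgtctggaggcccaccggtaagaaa
Ugt8a, chr3:125938603-125938902, minus strand: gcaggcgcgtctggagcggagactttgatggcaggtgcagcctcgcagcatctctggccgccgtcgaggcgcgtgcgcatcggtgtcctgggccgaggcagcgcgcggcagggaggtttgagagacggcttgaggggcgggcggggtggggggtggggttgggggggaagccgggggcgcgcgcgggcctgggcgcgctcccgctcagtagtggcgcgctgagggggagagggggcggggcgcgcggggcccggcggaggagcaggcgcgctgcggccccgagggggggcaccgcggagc
Pmp22, first start, chr11:63128732-63129031, plus strand: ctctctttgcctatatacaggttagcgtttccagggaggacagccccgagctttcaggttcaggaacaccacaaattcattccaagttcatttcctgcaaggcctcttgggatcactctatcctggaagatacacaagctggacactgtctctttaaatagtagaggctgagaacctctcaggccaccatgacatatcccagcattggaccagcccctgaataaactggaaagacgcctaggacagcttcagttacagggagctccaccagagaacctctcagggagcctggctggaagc
Pmp22, last start, chr11:63132553-63132852, plus strand: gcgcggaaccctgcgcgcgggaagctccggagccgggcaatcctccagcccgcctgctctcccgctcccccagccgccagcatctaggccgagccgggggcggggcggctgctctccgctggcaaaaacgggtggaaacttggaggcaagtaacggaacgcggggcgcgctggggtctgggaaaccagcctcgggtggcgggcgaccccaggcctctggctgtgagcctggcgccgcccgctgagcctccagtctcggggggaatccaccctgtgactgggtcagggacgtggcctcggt
The windows were searched on both strands for ACAAAG, a core of the sites bound by SOX factors, and GCGTGGG, a core of the sites bound by EGR factors, which share no overlap. GCGTGGG was in 1 of the 7 windows, on the reverse strand of the Prx window from position 90, counted from 1 at the 5′ end, and in 5.04% of all 32851 RefSeq windows. ACAAAG was in 0 of the 7 and in 18.7% of all windows. The windows differed widely in base composition. The Ugt8a window was 78.3% G and C with 40 CG dinucleotides, against a median of 52.7% and 7 over all windows. The Pmp22 window of the first start had 50.7% and 3, that of the last start 72.3% and 30, the Prx window 56.7% and 3, and the S100b window 53.7% and 3.

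Total counts ran from 84414005 to 107805065 per library in Achilles, Flexor and Supraspinatus and from 34559686 to 63235636 in Patellar. Genes with rRNA-like sequence took 13.2% to 42.04% of the Patellar counts and 1.86% to 4.91% elsewhere. The smallest count of any of the 8 genes was 2, for Ugt8a in a Supraspinatus library. Levels below are CPM, counts scaled to the size of the library with TMM factors. Differences are log2 fold changes ± standard error from edgeR's quasi-likelihood test fitted to all 16 libraries, with p-values adjusted by the Benjamini-Hochberg method over all 23754 genes and a threshold of 0.05. The labels' mouse numbers are taken as separate animals within a tendon.

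**Figure D1:**
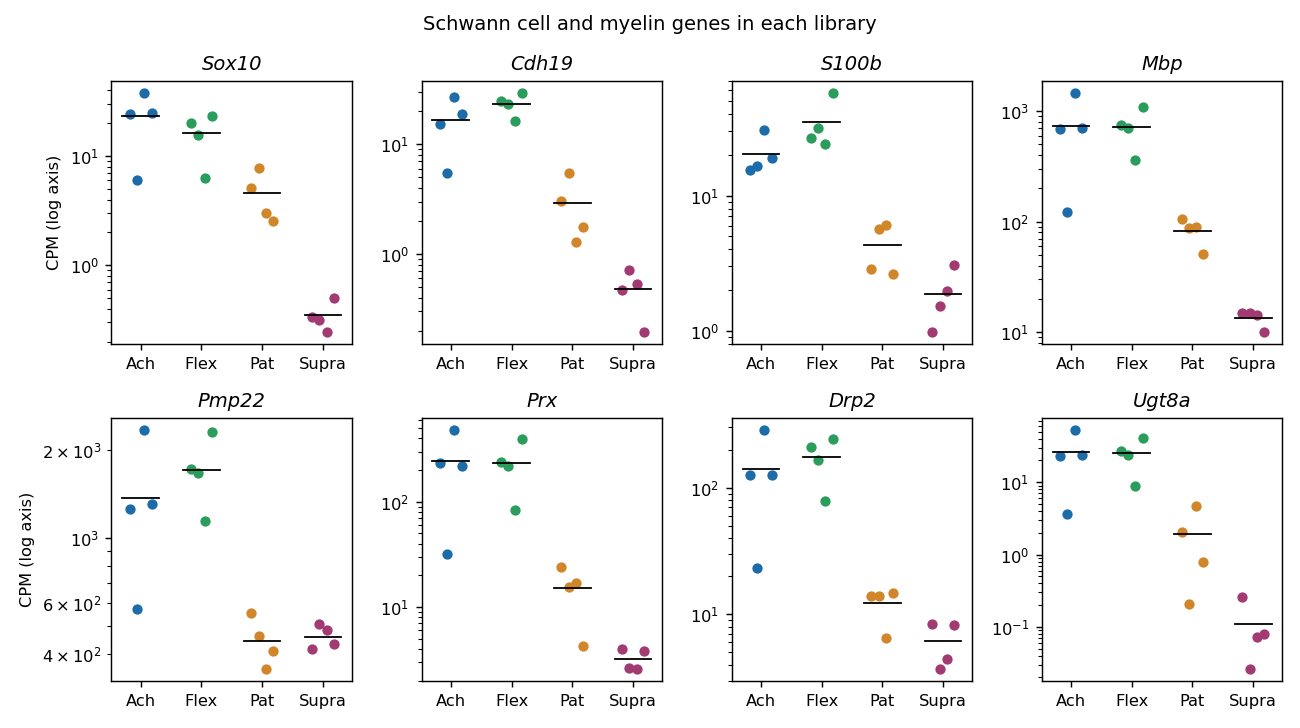
CPM of each gene in each of the 16 libraries, by tendon, on a log axis, with 1 panel per gene and 1 point per library. Mbp lies between 9.998 and 15.1 CPM in Supraspinatus, 51.4 and 105 in Patellar, and at 122 or more in the 8 Achilles and Flexor libraries, while the Patellar and Supraspinatus points of Pmp22 overlap.

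The 8 genes were highest in Achilles and Flexor, lower in Patellar and, apart from Pmp22, lowest in Supraspinatus by mean CPM. Over all 4 tendons 8 of 8 passed the threshold, against 64.9% of all genes tested. Of all counts in a library, the 8 genes together took 0.0907% to 0.487% in Achilles and 0.181% to 0.464% in Flexor, against 0.0403% to 0.0728% in Patellar and 0.0382% to 0.0466% in Supraspinatus. Compared per length, as RPKM, counts scaled by exon length and library size, Pmp22 had the highest level in each tendon and Mbp the next. In Achilles the RPKM ran from 582 for Pmp22 and 87.5 for Mbp through 43.3 for Prx, 16.4 for Drp2, 13.7 for S100b, 7.55 for Sox10 and 5.74 for Ugt8a to 3.87 for Cdh19. In Supraspinatus they ran from 195 for Pmp22 and 1.60 for Mbp to 0.0242 for Ugt8a.

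Sox10 (chromosome 15, 79154908 to 79165240, minus strand, GENCODE on GRCm38), the lineage factor, had 24.0, 5.99, 37.7 and 24.5 CPM in Achilles mice 1 to 4 and 19.9, 15.6, 6.31 and 23.4 in Flexor. It had 5.08, 7.81, 2.99 and 2.56 CPM in Patellar and 0.335, 0.314, 0.244 and 0.501 in Supraspinatus. Every Supraspinatus library lay below every other library, whereas the highest Patellar library exceeded the lowest of Achilles and of Flexor. Its log2 fold change was -2.31 ± 0.50 in Patellar minus Achilles and -6.04 ± 0.61 in Supraspinatus minus Achilles (edgeR, adjusted p = 0.00195 and 4.17e-06). The Supraspinatus counts behind these levels were 20 to 44 per library.

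Cdh19 (chromosome 1, 110888326 to 110977584, minus strand), a cadherin of Schwann cells and their precursors, had 15.4, 5.52, 26.6 and 18.7 CPM in Achilles and 24.6, 23.5, 16.1 and 29.2 in Flexor. Patellar libraries had 3.03, 5.49, 1.28 and 1.75 CPM, and Supraspinatus libraries 0.465, 0.707, 0.537 and 0.194. The ranges of the Patellar and Supraspinatus libraries did not overlap with each other or with those of Achilles and Flexor, although the highest Patellar value lay just under the lowest Achilles value. Cdh19 was lower by a log2 fold change of -2.49 ± 0.49 in Patellar and -5.12 ± 0.56 in Supraspinatus, each minus Achilles (edgeR, adjusted p = 0.000858 and 7e-06). The gene holds 2 transcripts annotated as yet to be experimentally checked (TEC), on the same strand, Gm38255 and Gm36944, whose reads the counting may have split from it. Gm36944 had a mean of 2.01 CPM in Achilles and 0.0349 in Supraspinatus.

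S100b (chromosome 10, 76253853 to 76261159, plus strand), a calcium-binding protein used as a Schwann cell marker and also made by other cells such as chondrocytes and adipocytes, had 15.4, 16.4, 30.5 and 18.97 CPM in Achilles and 26.8, 31.3, 24.3 and 57.4 in Flexor. It had 2.87, 5.69, 6.04 and 2.64 CPM in Patellar and 0.974, 1.53, 1.97 and 3.06 in Supraspinatus. The Patellar and Supraspinatus ranges overlapped each other, and neither overlapped Achilles or Flexor. The log2 fold change from Achilles was -2.24 ± 0.39 in Patellar and -3.43 ± 0.41 in Supraspinatus (edgeR, adjusted p = 0.000333 and 1.47e-05). Its end overlaps Dip2a on the opposite strand, and the sources used here do not give the strand setting of the counting, so reads of these genes may be mixed. Dip2a had mean levels of 14.9 to 23.4 CPM and did not follow S100b, with its highest mean in Patellar.

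Mbp (chromosome 18, 82475146 to 82585637, plus strand) encodes myelin basic protein, which joins the cytoplasmic faces of the compact layers. Achilles libraries had 683, 122, 1459 and 700 CPM and Flexor libraries 747, 711, 358 and 1080. Patellar libraries had 105, 87.1, 88.7 and 51.4 CPM, and Supraspinatus libraries 15.0, 15.1, 14.2 and 9.998. Only Achilles and Flexor overlapped. The mean CPM of Achilles was 8.92-fold that of Patellar and 54.6-fold that of Supraspinatus, and the log2 fold changes were -3.16 ± 0.53 and -5.77 ± 0.60 (edgeR, adjusted p = 0.000251 and 4.99e-06). A processed pseudogene, Rpl21-ps8, lies on the opposite strand inside Mbp, with mean levels of 0.124 to 0.402 CPM.

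Pmp22 (chromosome 11, 63128982 to 63159547, plus strand) encodes a tetraspan protein of compact myelin that is also made by many cells outside nerve. It had 1255, 574, 2344 and 1307 CPM in Achilles and 1722, 1670, 1141 and 2310 in Flexor. Patellar libraries had 552, 463, 357 and 411 CPM, and Supraspinatus libraries 416, 506, 484 and 435. The Achilles and Flexor libraries all lay above the Patellar and Supraspinatus libraries, which overlapped. Its mean was 3.07-fold higher in Achilles than in Patellar and 2.98-fold higher than in Supraspinatus, with log2 fold changes of -1.62 ± 0.32 and -1.57 ± 0.32 (edgeR, adjusted p = 0.00094 and 0.00137). Pmp22 made up 53.1% of the summed CPM of the 8 genes in Achilles and 58.1% in Flexor, against 78.2% in Patellar and 94.7% in Supraspinatus. Mbp made up 28.7%, 24.6%, 14.6% and 2.79%.

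Prx (chromosome 7, 27499324 to 27520214, plus strand), the scaffold of the Schwann cell plasma membrane whose upstream window is printed above, had 232, 31.96, 485 and 218 CPM in Achilles and 242, 221, 84.1 and 393 in Flexor. It had 23.9, 15.6, 16.8 and 4.25 CPM in Patellar and 3.95, 2.62, 2.58 and 3.80 in Supraspinatus. Within each of these 2 tendons all libraries were below those of Achilles and Flexor, and the lowest Patellar library stood just above the highest Supraspinatus library. The log2 fold changes from Achilles were -4.00 ± 0.68 and -6.22 ± 0.76 (edgeR, adjusted p = 0.000297 and 1.94e-05). An antisense gene, Gm15541, overlaps Prx and had a mean of 2.44 CPM in Achilles and 0.0793 in Supraspinatus, which without a stated strand setting cannot be separated from reads of Prx.

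Drp2 (chromosome X, 134404551 to 134456573, plus strand), the dystrophin-related partner of periaxin, had 126, 23.1, 287 and 126 CPM in Achilles and 211, 167, 78.4 and 244 in Flexor. It had 14.0, 14.0, 6.53 and 14.7 CPM in Patellar and 8.42, 3.71, 4.42 and 8.24 in Supraspinatus. The Patellar and Supraspinatus ranges overlapped through Patellar mouse 3, and both lay below every Achilles and Flexor library. The log2 fold changes from Achilles were -3.51 ± 0.58 and -4.50 ± 0.61 (edgeR, adjusted p = 0.000239 and 4.97e-05).

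Ugt8a (chromosome 3, 125865271 to 125938619, minus strand), the enzyme that makes galactosylceramide, had 23.3, 3.63, 53.3 and 23.8 CPM in Achilles and 26.9, 23.8, 8.99 and 41.5 in Flexor. It had 2.04, 0.208, 4.72 and 0.780 CPM in Patellar and 0.260, 0.0262, 0.0733 and 0.0797 in Supraspinatus. Patellar spanned a 22.7-fold range, overlapping Achilles at the top and Supraspinatus at the bottom. The Supraspinatus levels rest on 24, 2, 6 and 7 counts. The log2 fold changes from Achilles were -3.81 ± 0.85 and -7.83 ± 1.07 (edgeR, adjusted p = 0.00242 and 5.39e-05).

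**Figure D2:**
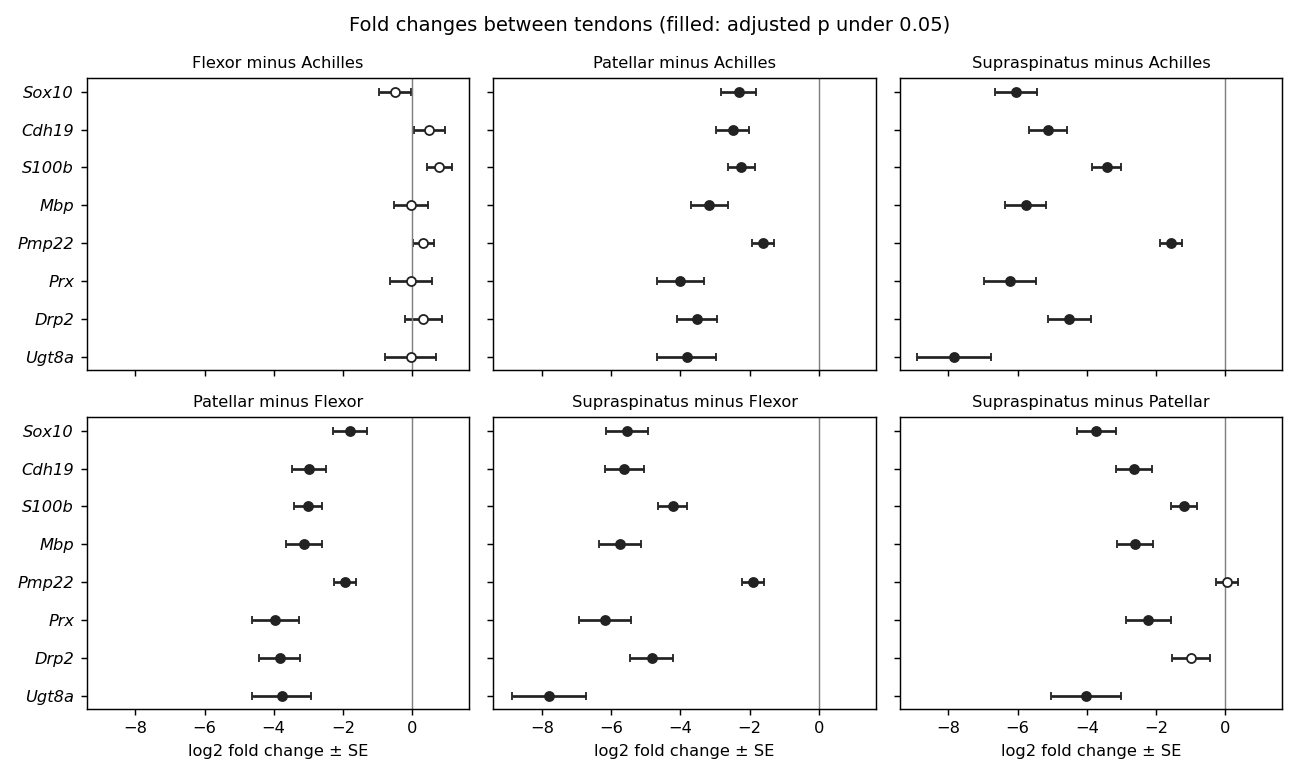
log2 fold change ± SE of the 8 genes in each of the 6 comparisons of tendons, with filled points for adjusted p under 0.05. The points of Flexor minus Achilles are open and between -0.50 and 0.78, those of the 4 comparisons of Patellar or Supraspinatus with Achilles or Flexor are filled and below 0, and in Supraspinatus minus Patellar Pmp22 and Drp2 are open.

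Between Flexor and Achilles 0 of the 8 genes passed in either direction by edgeR, against 6.5% of all genes tested that were higher and 9.72% that were lower in Flexor. At an unadjusted p under 0.05, 1 gene passed, S100b, with a log2 fold change of 0.78 ± 0.37 (adjusted p = 0.167 by edgeR), and DESeq2 and limma with voom also called 0. The other log2 fold changes ran from -0.50 ± 0.48 for Sox10 to 0.49 ± 0.45 for Cdh19, and Mbp stood at -0.03 ± 0.49. The ranges of the 8 genes overlapped between these tendons. How often ranges overlap over all genes was not counted, here or for the ranges given above. The standard errors ran from 0.31 for Pmp22 to 0.74 for Ugt8a.

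Patellar was lower than Achilles in 8 of 8 genes (median log2 fold change -2.82, against -0.01 over all genes), where 21.1% of all genes were lower and 17.4% higher in Patellar. Against Flexor it was lower in 8 of 8 as well (median -3.07, against -0.01), where 26.2% were lower and 24.2% higher. The largest fall from Flexor was that of Prx, -3.95 ± 0.68, and the smallest that of Sox10, -1.81 ± 0.49 (edgeR, adjusted p = 0.000175 and 0.00632). S100b stood at -3.02 ± 0.40 and Cdh19 at -2.98 ± 0.49 in that comparison (edgeR, adjusted p = 1.54e-05 and 0.000123). Without the 2 Patellar libraries that had over 30% rRNA-like counts, a setting chosen after seeing the data, Sox10 no longer passed against Flexor (-1.33, adjusted p = 0.0798 by edgeR) and 7 of 8 genes did. With limma and voom its adjusted p was 0.0518.

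Supraspinatus was lower than Achilles in 8 of 8 genes (median log2 fold change -5.45, against -0.04 over all genes), where 16.7% of all genes were lower and 16.9% higher in Supraspinatus. Against Flexor it was lower in 8 of 8 (median -5.58, against -0.07), where 12.4% were lower and 14.7% higher. Ugt8a had the largest fall from Flexor, -7.79 ± 1.07, followed by Prx, -6.18 ± 0.76, Mbp, -5.74 ± 0.60, Cdh19, -5.62 ± 0.57, and Sox10, -5.54 ± 0.60. Drp2 fell by 4.82 ± 0.62 and S100b by 4.21 ± 0.42 on the log2 scale. Pmp22 had the smallest fall, -1.89 ± 0.32, and the highest adjusted p of the 8, 0.00034 by edgeR. These comparisons share the Achilles and Flexor libraries with those of Patellar above.

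Supraspinatus was lower than Patellar in 6 of 8 genes (median log2 fold change -2.42, against -0.08 over all genes), where 26.8% of all genes were lower and 26.4% higher in Supraspinatus. The falls were -4.02 ± 1.01 for Ugt8a, -3.73 ± 0.56 for Sox10, -2.63 ± 0.52 for Cdh19, -2.61 ± 0.52 for Mbp, -2.22 ± 0.64 for Prx and -1.19 ± 0.39 for S100b. The lowest adjusted p was that of Sox10 and the highest that of S100b (edgeR, 4.66e-05 and 0.016). Drp2 had -0.99 ± 0.54 (edgeR, adjusted p = 0.135), and Pmp22 had 0.05 ± 0.31 (edgeR, adjusted p = 0.915). S100b missed the threshold without Patellar mouse 3 (adjusted p = 0.0501 by edgeR) and without Supraspinatus mouse 1 (0.0543), and Drp2 passed it without Achilles mouse 2 (0.0448). With limma and voom 3 of the 6 still passed, the exceptions being Prx, S100b and Ugt8a.

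In the authors' deposited table, all 8 genes were listed, with 0 called between Achilles and Flexor, 6 between Patellar and Supraspinatus and 8 in each of the other 4 comparisons. The share of all genes called in that table was not counted, so these counts have no background beside them. Directions there were those found here, apart from Pmp22 between Patellar and Supraspinatus, where the authors' deposited table gives an FDR of 0.728.

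**Figure D3:**
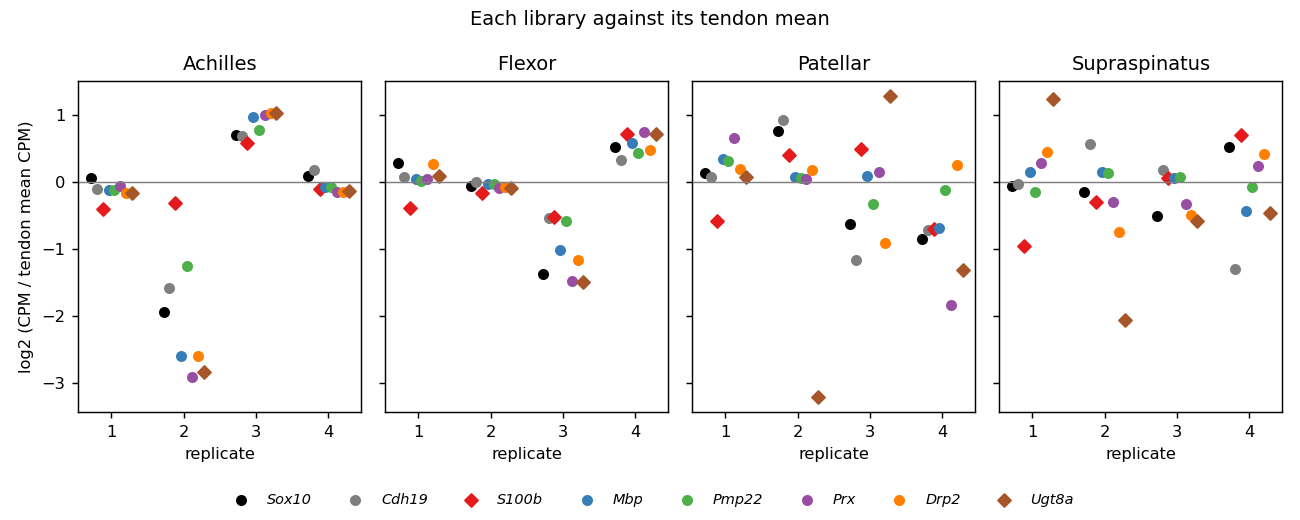
log2 of each gene's CPM in a library over the mean CPM of its tendon, by replicate number, with 1 panel per tendon and 1 colour per gene, S100b and Ugt8a drawn as diamonds. The 8 points of Achilles mouse 3 and of Flexor mouse 4 lie above 0 as the highest of their tendon, and those of Flexor mouse 3 are the lowest of theirs.

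Within Achilles and within Flexor the genes varied together from library to library. Achilles mouse 3 had the highest level of 8 of 8 genes, and Achilles mouse 2 the lowest of 7 of 8, S100b being lowest in Achilles mouse 1. Flexor mouse 4 was highest and Flexor mouse 3 lowest for 8 of 8. In Patellar and Supraspinatus no library was highest for more than 3 of the 8. The highest Achilles library exceeded the lowest 15.2-fold for Prx, 14.7-fold for Ugt8a, 12.4-fold for Drp2 and 12-fold for Mbp, against 6.29-fold for Sox10, 4.83-fold for Cdh19, 4.09-fold for Pmp22 and 1.97-fold for S100b. Leaving out any 1 library, Achilles mouse 2 included, left 8 of 8 genes past the threshold in each of the 4 comparisons of Patellar or Supraspinatus with Achilles or Flexor.

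How closely each gene followed the other 7 was described by Pearson's r of log2 CPM with the mean of their standardised values over 16 libraries, after each tendon's mean was subtracted. It was 0.95 for Mbp, 0.94 for Prx, 0.92 for Pmp22, 0.89 for Sox10 and 0.83 for Drp2. It was lower for Cdh19 (0.61), Ugt8a (0.52) and S100b (0.35). The points share libraries and depth, and the Patellar libraries are shallower than the rest. Among 14955 other genes with a mean of at least 1 CPM, the 8 most like the mean of these genes on this measure included Ncmap (0.96), Arhgap19 (0.96), Pllp (0.95), Secisbp2l (0.95), Gatm (0.93) and Cfap100 (0.91). With the tendon means kept, the 8 most alike included Mal (0.99), Pllp (0.99), Gatm (0.98), Tesk2 (0.98), Bcas1 (0.97), Gas2l3 (0.97) and Ncmap (0.97). Mal, a proteolipid of myelin membranes, had a mean of 61.1 ± 46.4 CPM in Achilles and 61.2 ± 22.7 in Flexor (SD, n = 4), against 6.88 ± 4.57 in Patellar and 1.57 ± 0.44 in Supraspinatus.

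**Figure D4:**
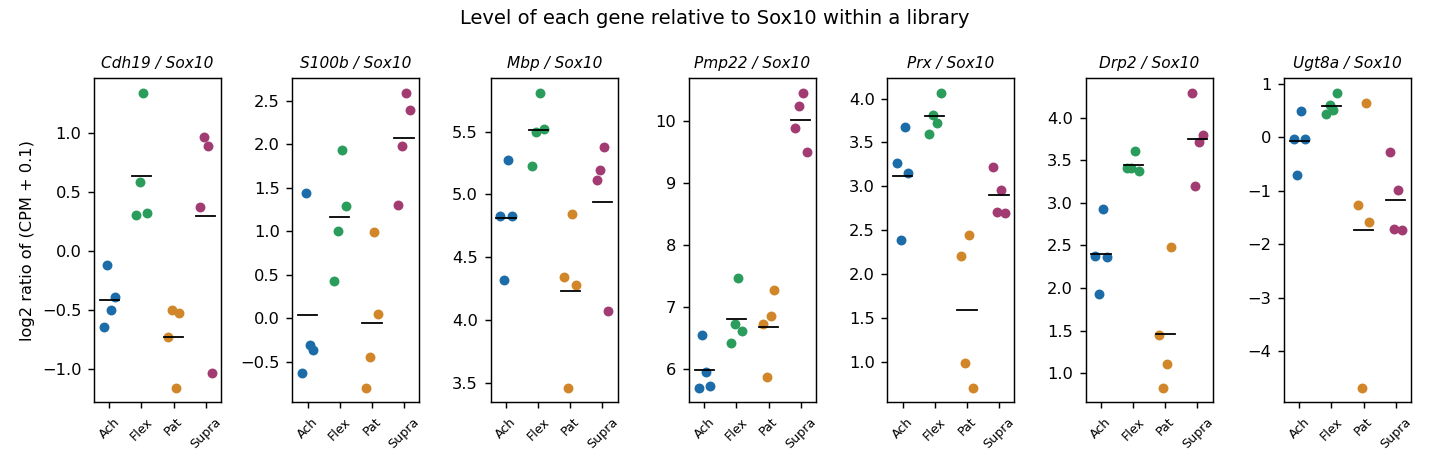
log2 ratio of each gene's CPM + 0.1 to that of Sox10 + 0.1 in each of the 16 libraries, by tendon, with 1 panel per gene. The 4 Supraspinatus points of Pmp22 lie between 9.50 and 10.5, above the 12 others, which lie between 5.70 and 7.48.

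Ratios to Sox10 within a library compare each gene with the lineage factor. They were computed after adding 0.1 CPM to each level, which pulls the ratios of low genes towards 1, in Supraspinatus above all, where Sox10 is at 0.244 to 0.501 CPM. They were compared between tendons with 42 exact 2-sided permutation tests of 4 against 4 libraries, in which the smallest possible p is 0.0286. That p was reached by 15 ratios, but after adjustment over the 42 tests the smallest value was 0.08 and 0 passed. The mean log2 ratio of Pmp22 to Sox10 was 10.03 ± 0.42 in Supraspinatus (SD, n = 4), against 5.99 ± 0.40 for Achilles, 6.81 ± 0.46 for Flexor and 6.68 ± 0.59 for Patellar. The ratio of Mbp to Sox10 was 4.81 ± 0.39, 5.51 ± 0.24, 4.23 ± 0.57 and 4.94 ± 0.59 over Achilles, Flexor, Patellar and Supraspinatus, and that of Prx 3.12 ± 0.54, 3.80 ± 0.20, 1.59 ± 0.87 and 2.90 ± 0.24. Drp2 had ratios of 2.40 ± 0.41, 3.45 ± 0.11, 1.46 ± 0.72 and 3.75 ± 0.45. Against Patellar, 4 of 4 Supraspinatus libraries had the higher ratio for Pmp22, Prx, Drp2 and S100b, each at an exact permutation p of 0.0286 and an adjusted p of 0.08. Sox10 itself had only 20 to 44 counts per Supraspinatus library, which limits these ratios.

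**Figure D5:**
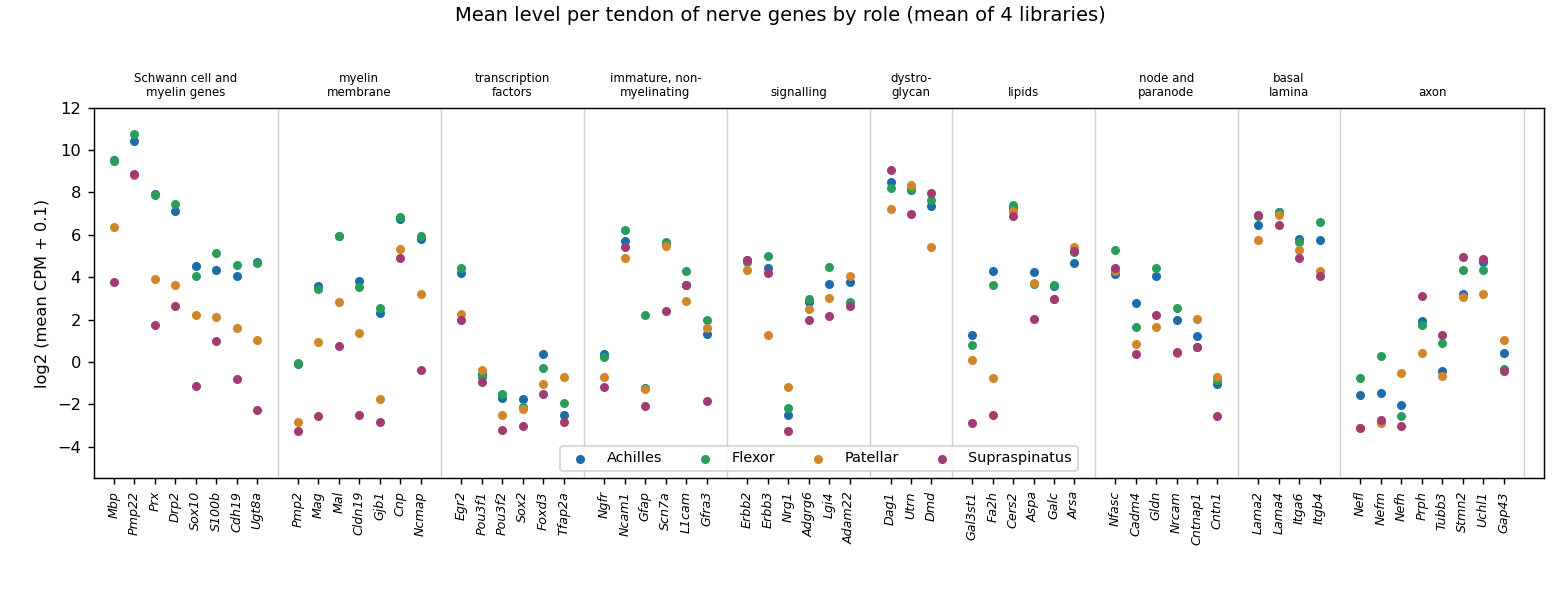
log2 of the mean CPM + 0.1 per tendon for the 8 genes and for 9 lists of nerve genes grouped by role, with 1 point per tendon (mean of 4 libraries). In the myelin membrane group each Supraspinatus point is the lowest of its gene, with Mal at 1.57 CPM, whereas Erbb3 has its low point in Patellar and Scn7a only in Supraspinatus.

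A further 7 genes of the myelin membrane (Pmp2, Mag, Mal, Cldn19, Gjb1, Cnp and Ncmap) were all lower in Patellar and in Supraspinatus than in Achilles, 7 of 7 in each, against 21.1% and 16.7% of all genes. They were lower than in Flexor 7 of 7 times as well, against 26.2% of all genes in Patellar and 12.4% in Supraspinatus. In Supraspinatus 4 of 7 were lower than in Patellar, against 26.8% of all genes. Between Flexor and Achilles 0 of 7 passed by edgeR, DESeq2 or limma with voom, and 0 at an unadjusted p under 0.05. Relative to Achilles, Mal had a log2 fold change of -3.15 ± 0.60 in Patellar and -5.29 ± 0.67 in Supraspinatus (edgeR, adjusted p = 0.000751 and 2.6e-05). Ncmap, a myelin-associated membrane protein of peripheral nerve, had -2.59 ± 0.57 and -6.37 ± 0.69 (edgeR, adjusted p = 0.00209 and 7e-06).

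Genes of other Schwann cell roles were less uniform, and their counts below are to be read against the shares of all genes given above, 21.1% lower and 17.4% higher in Patellar and 16.7% lower and 16.9% higher in Supraspinatus, each minus Achilles. Of 6 transcription factors, Egr2, the partner of SOX10 in myelination, had log2 fold changes of -1.95 ± 0.42 in Patellar and -2.24 ± 0.42 in Supraspinatus, each minus Achilles (edgeR, adjusted p = 0.00177 and 0.000768), and did not pass between those 2 tendons (-0.28 ± 0.41, adjusted p = 0.587). The list as a whole had 1 higher (Tfap2a) and 1 lower in Patellar minus Achilles and 3 lower in Supraspinatus minus Achilles. Pou3f2 was among those 3, at a mean of 0.206 CPM in Achilles. Of 6 genes for non-myelinating or immature Schwann cells, Scn7a, a sodium channel of non-myelinating Schwann cells, stood at 5.24 ± 1.62 CPM in Supraspinatus, against 47.1 ± 12 for Achilles, 50.4 ± 9.75 for Flexor and 44.6 ± 22.4 for Patellar. It did not pass in Patellar minus Achilles (-0.08 ± 0.33, adjusted p = 0.875 by edgeR) and fell by 3.17 ± 0.36 in Supraspinatus (edgeR, adjusted p = 1.08e-05). Gfra3, a receptor for artemin, likewise stood at 0.34 ± 0.57 in Patellar and fell by 3.69 ± 0.66 in Supraspinatus (edgeR, adjusted p = 0.671 and 0.000499). In that list 1 of 6 was lower in Patellar, near the 21.1% of all genes, and 3 of 6 in Supraspinatus, against 16.7%, Ngfr among the latter (-1.78 ± 0.64, adjusted p = 0.0415 by edgeR). Gfap, an intermediate filament of non-myelinating Schwann cells, was higher in Flexor than in Achilles (3.80 ± 0.55, adjusted p = 0.000289 by edgeR), with means of 4.56 and 0.324 CPM.

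Of 6 genes for signalling between axon and Schwann cell, 2 were lower in Patellar and 3 in Supraspinatus than in Achilles, against 21.1% and 16.7% of all genes. Erbb3, the neuregulin receptor of Schwann cells, had 2.28 ± 2.21 CPM in Patellar, against 21.5 ± 10.5 for Achilles, 32.0 ± 7.06 for Flexor and 18.4 ± 1.97 for Supraspinatus. It fell by 3.18 ± 0.51 in Patellar but did not pass in Supraspinatus, each minus Achilles (-0.22 ± 0.46 for the second, edgeR, adjusted p = 0.000171 and 0.746). In Supraspinatus minus Patellar it was higher by 2.95 ± 0.50 (edgeR, adjusted p = 0.000141), where Sox10 was lower. Whether cells other than Schwann cells gave the reads of Erbb3 was not tested. Lgi4, a secreted Schwann cell protein needed for myelination, fell by 1.53 ± 0.29 in Supraspinatus minus Achilles (edgeR, adjusted p = 0.000871). Its receptor Adam22 fell by 1.17 ± 0.26 in that comparison (edgeR, adjusted p = 0.00255). Adam22 was also lower in Flexor minus Achilles (-0.94 ± 0.26, edgeR, adjusted p = 0.0195). In Patellar minus Flexor it was higher (1.20 ± 0.26, edgeR, adjusted p = 0.00116), so it did not follow the genes of the myelin membrane.

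The genes listed for dystroglycan complexes, which muscle fibres also make, were Dag1, Utrn and Dmd. Dag1 and Dmd were lower in Patellar and higher in Supraspinatus than in Achilles, by -1.23 ± 0.17 and 0.57 ± 0.16 for Dag1 (edgeR, adjusted p = 4.07e-05 and 0.0141). Utrn fell by 1.14 ± 0.10 in Supraspinatus (edgeR, adjusted p = 1.61e-06). Of 6 genes of myelin lipids, 2 were lower and 1 higher in Patellar, and 5 were lower and 1 higher in Supraspinatus, each minus Achilles. Fa2h, the fatty acid hydroxylase that supplies UGT8A, had means of 19.3, 12.1, 0.494 and 0.0748 CPM in Achilles, Flexor, Patellar and Supraspinatus, with log2 fold changes from Achilles of -5.08 ± 1.0 in Patellar and -7.96 ± 1.19 in Supraspinatus (edgeR, adjusted p = 0.000931 and 0.000114). Gal3st1, which sulphates the galactolipid, fell by 5.88 ± 0.95 in Supraspinatus (edgeR, adjusted p = 0.000226) and had -1.33 ± 0.74 in Patellar (edgeR, adjusted p = 0.17). Of 6 genes of the node of Ranvier and the paranode, 3 were lower and 1 higher in Patellar, and 3 were lower in Supraspinatus, with Gldn at -2.46 ± 0.59 and -1.87 ± 0.57 (edgeR, adjusted p = 0.00402 and 0.02). Of 4 genes of the basal lamina and its receptors, 2 were lower in Patellar and 3 in Supraspinatus, where 21.1% and 16.7% of all genes were, among them Itgb4 in each (-1.45 ± 0.49 and -1.72 ± 0.49, edgeR, adjusted p = 0.0271 and 0.0132).

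Axon genes, which are transcribed mainly in nerve cell bodies outside the tendon, did not move together. Of 8, 4 were lower in Patellar than in Achilles (21.1% of all genes), and 2 were lower and 3 higher in Supraspinatus (16.7% and 16.9% of all genes). Nefl, a neurofilament subunit, had means of 0.237, 0.485, 0.0154 and 0.0131 CPM in Achilles, Flexor, Patellar and Supraspinatus, at the edge of detection in the last 2. It was among the genes lower in each, at -4.20 ± 1.37 in Patellar and -4.13 ± 1.19 in Supraspinatus, each minus Achilles (edgeR, adjusted p = 0.0238 and 0.0144). Prph, peripherin, was higher in Supraspinatus than in Achilles (1.18 ± 0.37, adjusted p = 0.0234 by edgeR) and lower in Patellar (-1.63 ± 0.39, adjusted p = 0.00399).

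Other cell types that share genes with Schwann cells, or differ in amount between tendons, were measured by their own lists. Oligodendrocyte genes, which share Mbp and Ugt8a with Schwann cells, summed to 0.00992 to 0.18 CPM in Achilles and to at most 0.232 CPM in any tendon. Olig2 and Opalin were at 0 in every Achilles and Patellar library, and Mobp was the only 1 of 4 that passed the filter. Mobp was lower in Patellar and in Supraspinatus than in Achilles (-3.96 ± 1.28 and -4.52 ± 1.18, edgeR, adjusted p = 0.0227 and 0.00787). Its mean was 0.101 CPM in Achilles and 0.0033 in each of the other 2, at the edge of detection. The 6 melanocyte genes, which share Sox10 with Schwann cells, summed to 14.1 to 18.99 CPM in Supraspinatus, against 19.9 to 26.9 for Achilles, 23.8 to 28.7 for Flexor and 19.9 to 27.3 for Patellar, with Tyrp1 at 0 in every Supraspinatus library. Most of that sum was Mitf, which is not particular to melanocytes, at means of 16.4 CPM in Supraspinatus and 20.8 in Achilles. Of the more specific genes, Dct (-6.51 ± 1.49), Mlana (-6.08 ± 1.05) and Tyrp1 passed as lower in Supraspinatus than in Achilles (edgeR, adjusted p = 0.00322, 0.000394 and 0.0226), with Achilles means of 0.663, 0.692 and 0.16 CPM. Pmel, also more specific, did not pass there (-0.45 ± 0.54, edgeR, adjusted p = 0.56), with means of 0.891 CPM in Achilles and 0.654 in Supraspinatus. The part of the melanocyte genes in the result for Sox10 was not tested. The 8 skeletal muscle genes summed to 343 to 6754 CPM in Patellar, 32163 to 68077 in Achilles, 46913 to 73251 in Flexor and 109335 to 124130 in Supraspinatus. In Supraspinatus most of the sum was Acta1 and Myh4, at means of 41850 and 27949 CPM. All 8 were lower in Patellar than in each other tendon. Of all genes, 21.1% were lower in Patellar than in Achilles and 26.2% than in Flexor, and 26.4% were higher in Supraspinatus than in Patellar. In Supraspinatus 4 of 8 were higher than in Achilles, against 16.9% of all genes, and 0 of 8 than in Flexor, against 14.7%. That 0 was by edgeR, with 2 at an unadjusted p under 0.05, and 1 was called in either direction by DESeq2 and 0 by limma with voom. Myh2 had its highest mean in Achilles. The 5 adipocyte genes summed to 1864 to 4217 CPM in Achilles and 3152 to 6568 in Patellar, against 208 to 331 in Flexor and 182 to 695 in Supraspinatus. The 4 chondrocyte genes (Acan, Col2a1, Col9a1 and Sox9) summed to 60.5 to 98.5 CPM in Achilles and 62.6 to 135 in Flexor. In Patellar they summed to 25.6 to 178 CPM and in Supraspinatus to 40.4 to 111. Of these, only Col9a1 passed between Achilles and another tendon. It was higher in Flexor (4.79 ± 0.50, edgeR, adjusted p = 1.57e-05). It was lower in Patellar and Supraspinatus (-3.12 ± 0.61 and -2.06 ± 0.50, edgeR, adjusted p = 0.000931 and 0.00475). Col2a1 passed as lower in Supraspinatus than in Flexor and in Patellar. The part of muscle, adipocyte and chondrocyte genes in the results for S100b, Pmp22, Erbb3, Dag1 and Dmd was not tested. The perineurium genes Cldn1 and Slc2a1, of the sheath around nerve bundles, summed to 118 to 218 CPM in Flexor, against 42.3 to 61.4 for Achilles, 12.2 to 42.2 for Patellar and 30.1 to 42.2 for Supraspinatus. In Supraspinatus most of that sum was Slc2a1, at a mean of 34.3 CPM, against 1.13 for Cldn1. Cldn1 fell by 4.01 ± 0.81 in Supraspinatus minus Achilles, and Slc2a1 did not pass (-0.06 ± 0.23, edgeR, adjusted p = 0.00133 and 0.867). In Patellar minus Achilles Slc2a1 fell by 1.32 ± 0.23, and Cldn1 did not pass (-0.76 ± 0.71, edgeR, adjusted p = 0.000402 and 0.424). The 5 tendon genes were detected in every tendon, with sums of 3726 CPM or more. Most of the sum was Col1a1 and Fmod, at means of 5716 and 2155 CPM in Achilles, against 182 for Tnmd and 18.8 for Scx. Of the 5, 4 were higher in Patellar than in Achilles and 4 than in Flexor, against 17.4% and 24.2% of all genes, and 0 were lower. Scx had a mean of 4.90 CPM in Flexor and 102 in Patellar.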

How the data were processed

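RNA from 4 mouse tendons, with 4 libraries each, was purified as total RNA with DNase I and made into Illumina libraries, per the labels' protocols. The authors deposited whole-number read counts per gene, with no normalization, for 41204 genes. Build mm10 and the tools FastQC, HISAT2 and edgeR are named per the submitters' processing notes. The sources used here do not give the counter, its strand setting, the annotation or any version. A further table holds the authors' log2 fold changes, log2 CPM, p-values and FDR, used only where the text names it.

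Each library was grouped by the tendon in its label. In R 4.3.3, edgeR 4.0.16 was run with filterByExpr by tendon, which left 23754 genes, TMM scaling, and a robust quasi-likelihood fit with 1 mean per tendon over 16 libraries. The 6 contrasts and the test over 4 tendons were 2-sided, adjusted within each. A standard error is the size of the log2 fold change over the root of its F statistic. RPKM uses union exon lengths of GENCODE on GRCm38. Ratios used a pseudocount of 0.1 CPM.

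The 8 genes and the lists were chosen with earlier results of these data known. Beyond the 8 genes, the text was to name up to 3 genes per nerve list with the lowest adjusted p over all tendons, Egr2, Erbb3, Ngfr, Scn7a and Nefl in any case, and 8 genes by each likeness measure; other names give the members of a list, a count or a shared position. A few genes taken by this rule, or on a list, are not reported here.

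Other settings were median-ratio size factors, no filter, the mouse number as a block, limma 3.58.1 with voom, DESeq2 1.42.0, leaving out the rRNA-like genes (mt-Rnr1, mt-Rnr2, Gm26917, Gm23935, Gm15564, CT010467.1 and Lars2), the 8 libraries of a pair alone, each library left out in turn, ratio pseudocounts of 0.01 and 1, and, chosen after seeing the data, leaving out 2 Patellar libraries. The fit was also run on simulated counts in which few genes differed between tendons, unlike these data, so no result here rests on that run. Python 3.11.15 with matplotlib 3.10.9 drew the figures.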

Additional observations from a re-analysis of the deposited data

Results flagged for a closer look

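The lowest Patellar level of Drp2, 6.53 CPM in Patellar mouse 3, lay far from the other 3 Patellar libraries (14.0, 14.0 and 14.7 CPM). Its gap to the nearest of them was 0.91 of the range of the 4, above Dixon's 95% critical value for 4 samples. It was the only one of 32 groups of a gene and a tendon examined, and chance flags about 1 in 20 groups. That library also had the highest share of rRNA-like counts, 42.04%, and the smallest total, 34559686. Their part in the low value was not tested.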

How the results depend on the processing

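No fold change of the 8 genes that passed the threshold changed sign under any setting. Of those that did not pass, 5 turned under at least 1 setting, all without passing. In Flexor minus Achilles these were Mbp (-0.42 to 0.53 over the settings), Prx (-0.44 to 0.55), Ugt8a (-0.44 to 0.69) and Drp2 (-0.07 to 0.94), and in Supraspinatus minus Patellar Pmp22 (-0.10 to 0.18). The differences of 9 ratios to Sox10, none past the threshold, turned likewise. Counts of the 8 genes were 0 in Flexor minus Achilles and 8 in the other comparisons of Patellar and Supraspinatus with Achilles and Flexor under every setting run, except 7 in Patellar minus Flexor with limma and voom and without the 2 Patellar libraries with over 30% rRNA-like counts. In Supraspinatus minus Patellar, 6 genes passed, 3 with limma and voom, 7 with only the 8 libraries of the pair (where Drp2 had an adjusted p of 0.0372), and 5 to 7 with any 1 library left out. Over all genes, those called in Flexor minus Achilles numbered 3853, 6580 with only the 8 libraries of the pair, and 2520 to 5358 with 1 library left out, the lowest without Flexor mouse 2 and 2540 without Flexor mouse 3. Patellar minus Achilles had 9131 called, and 5854 with only its 8 libraries. The causes were not tested. Of the single fold changes under other settings, 1143 kept their side of the threshold, 7 lost it and 2 passed it anew. The 420 recomputed ratio tests gave 0 that passed.

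With the mouse number as a replicate block, the 8 genes gave the same counts, 0, 8, 8, 8, 8 and 6 in the 6 comparisons, and 3555 genes were called in Flexor minus Achilles. The labels do not say that a number marks 1 animal. Same-numbered libraries of different tendons had deviations with r from -0.13 to 0.26, over 0.1 in 2 of 24 pairs, and a library correlated best with its own number in 11 of 48 cases.

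Depth limits Ugt8a, Cdh19 and Sox10 in Supraspinatus, with 2 to 24, 17 to 54 and 20 to 44 counts per library.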
